A study of Mus musculus with 4 samples.

Results

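The small heat-shock proteins and myosin chaperones of mouse muscle cells were followed here as 10 genes, chosen by symbol as every row named Hspb1, Hspb2, Hspb3, Hspb6, Hspb7, Hspb8, Cryab, Unc45b, Smyd1 or Hsp90aa1. All 10 were found, among 24850 named entries of 61630 in the tables of total RNA and among 24992 entries in the tables of polyA RNA. The cells were C2C12, an established mouse myoblast line that fuses into myotubes when serum is lowered (differentiation medium, DM). Myoblasts (MB) were taken in growth medium 24 h before the switch (DM -24 hours) and myotubes (MT) at DM 72 hours. RNA depleted of ribosomal RNA was sequenced from each. In a second experiment cells were transfected with an siRNA against hnRNPL, an RNA-binding protein (si-hnRNPL), or with a control siRNA (si-NC), and polyA RNA was sequenced at DM 48 hours. Each of the 4 conditions was 1 library of 1 cell line, so the differences below rest on single libraries, with no replicate check and no p-value. Abundance is in FPKM (fragments mapped to a gene, scaled to transcript length and library size), which is a level per length. The 95% interval that Cufflinks attached to each value is printed beside it and covers error within a library only.

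Small heat-shock proteins share a conserved alpha-crystallin domain, need no ATP, and hold unfolding proteins in large assemblies until other chaperones or autophagy take over. In muscle they sit on desmin, actin, titin and filamin, the proteins that carry mechanical load. Thick filaments need a chaperone line of their own, because the myosin head does not fold unaided: Unc45b holds it, Hsp90 works with Unc45b, and Smyd1, a lysine methyltransferase of muscle, is required for the filaments to assemble.

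In the total RNA some of the 10 genes were switched on in MT, and the others were already expressed in MB at widely differing levels. Unc45b, Smyd1, Hspb3 and Hspb7 lay below an FPKM of 0.25 in MB and above 4 in MT. Hspb2 and Hspb8 were also higher in MT, Hspb1 and Cryab stayed among the most abundant in both stages, and Hspb6 and Hsp90aa1 were lower in MT. After transfection with si-hnRNPL none of the 10 differed from si-NC by the size used as a call. Of all genes tested 1.44% were called higher and 0.888% lower, so none of 10 is near that share. Values were above those of si-NC for 9 of the 10 genes, against 48.0% of all genes tested. After a correction for transcript length and GC content 7 of the 10 changes were above 0, against 45.9% of genes.

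Before the levels, the promoter letters of the 4 genes that were switched on, and of Hspb1 as a gene that was high throughout, are shown because MyoD family factors, MEF2 and heat-shock factor are the textbook regulators of muscle and chaperone genes. RefSeq promoter windows (GRCm38.p6, 250 bases before to 50 after a start site) were matched by symbol for 7 of the 10 genes, in 8 windows, since Hspb6 has 2 start sites. Hspb2, Cryab and Hsp90aa1 had no entry. The last 150 bases before the start site are printed 5′ to 3′ on the gene's strand, with capitals marking the motifs found there. They are from chr13:113663677-113663826 (minus strand) for Hspb3, chr4:141420629-141420778 (plus) for Hspb7, chr11:82911103-82911252 (plus) for Unc45b, chr6:71262282-71262431 (minus) for Smyd1 and chr5:135887769-135887918 (plus) for Hspb1.
Hspb3: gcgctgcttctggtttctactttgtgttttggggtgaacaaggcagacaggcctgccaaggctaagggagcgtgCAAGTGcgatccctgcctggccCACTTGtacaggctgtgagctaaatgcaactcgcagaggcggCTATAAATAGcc
Hspb7: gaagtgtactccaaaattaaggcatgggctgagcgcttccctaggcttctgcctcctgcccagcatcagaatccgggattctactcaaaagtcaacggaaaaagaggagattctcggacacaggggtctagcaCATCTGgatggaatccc
Unc45b: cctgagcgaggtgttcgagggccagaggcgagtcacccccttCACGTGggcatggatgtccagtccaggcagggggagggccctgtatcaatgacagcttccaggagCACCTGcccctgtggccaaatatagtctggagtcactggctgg
Smyd1: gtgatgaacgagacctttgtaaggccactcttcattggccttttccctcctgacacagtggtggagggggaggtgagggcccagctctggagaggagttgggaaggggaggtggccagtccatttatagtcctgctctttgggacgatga
Hspb1: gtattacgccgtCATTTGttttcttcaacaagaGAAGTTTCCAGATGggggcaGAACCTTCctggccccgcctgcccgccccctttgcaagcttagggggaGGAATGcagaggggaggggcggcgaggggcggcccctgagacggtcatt

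Both strands of the whole windows were searched. The E-box CANNTG, the core that MyoD family factors bind, was in 5 of the 7 genes with a window (Hspb1, Hspb3, Hspb7, Hspb8 and Unc45b), and 72.3% of 32851 RefSeq promoters hold it. Its form CAGCTG, which is also counted under CANNTG, was in none of the 7 and in 16.3% of all promoters. A pair of heat-shock units (GAANNTTC or TTCNNGAA) was in 4 genes and in 15.1% of all promoters. Hspb1 held it at -117 and -97 from the start site, Hspb3 at -224, Hspb6 at -120 of its second window and Hspb8 at 3. The MCAT element (CATTCC or GGAATG) was in Hspb1 at -49 and Hspb7 at 4, and in 14.7% of all promoters. The MEF2 element was in Hspb3 alone, at -12, and in 0.557% of all promoters. The CArG element was in none, against 1.63% of all promoters, and the Smyd1 window held none of the 6 motifs. A match is a stretch of letters and not a shown binding site, and no match concerns this window only.

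The stages were first checked against markers. All 6 myotube markers were higher in MT, 5 of them through the filter on FPKM described below, which they passed in MT alone. Tnnt3, the fast skeletal troponin T, stood at 0.613 FPKM in MB and at 295 in MT, with Myog, the factor that commits myoblasts to fusion, at 0.695 and 251. Of 6 markers of proliferating myoblasts 5 were lower in MT, with Ccnb1, a mitotic cyclin, at 123 and 13.7. Mki67, which marks cycling cells, was at 62.2 in MB and still at 15.6 in MT, so a fold below is one between cell populations and not between pure stages. In bulk RNA a larger share of myotube nuclei and more RNA per nucleus cannot be told apart.

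Among markers of other cell types, Adipoq, Cidec and Plin1 of fat cells, Ibsp of bone and Adgre1 of macrophages were at 0 in both libraries, and the 6 endothelial and immune genes were at an FPKM of at most 1.13. The fat and bone genes tested were Pparg, at 14.8 in MB and 3.94 in MT, Runx2 at 10.3 and 6.11, and Bglap. All 3 were called, Runx2 only before centring on the median. Bglap, at 0.202 and 1.09, passed the filter on FPKM through MT alone and so had to be called higher. Smooth muscle genes, of which C2C12 myoblasts express several, were lower or level: Cnn1 went from 51.9 to 1.35, Tagln from 239 to 78.6, and Acta2 was at 437 in MB and 367 in MT. Myh11, the smooth muscle myosin heavy chain, was near 0 at 0.0994 and 0.0251 and was not tested. The part of the cell mixture in the values below was not tested.

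**Figure D1:**
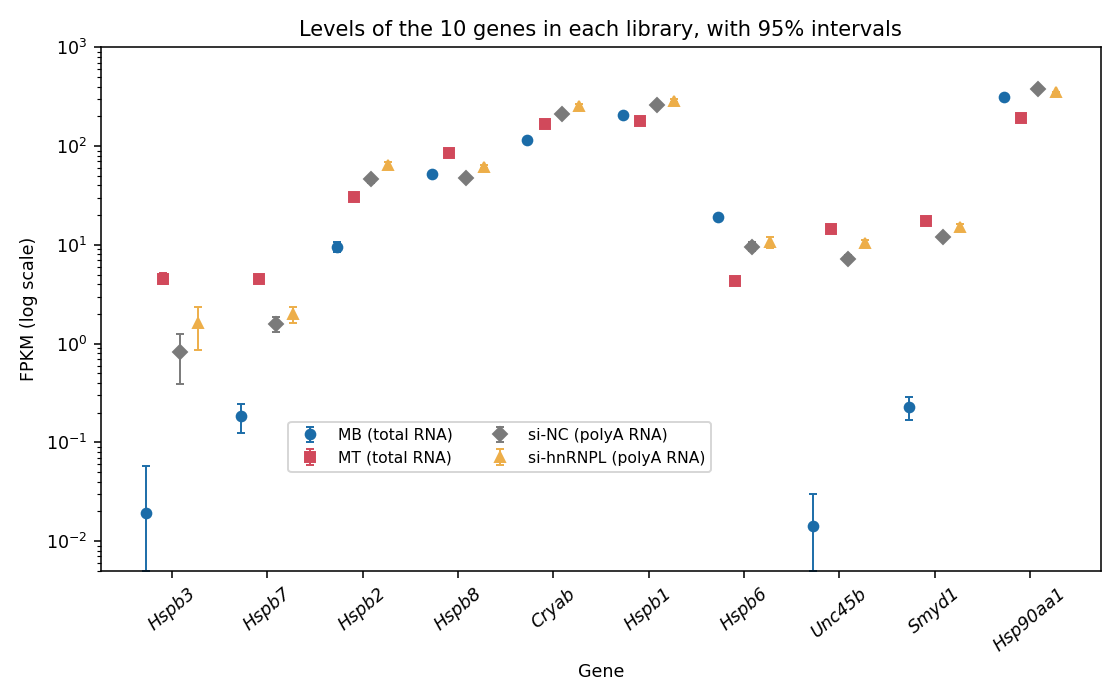
FPKM (log axis) of the 10 genes in the 4 libraries, with the 95% intervals of Cufflinks as bars, where a bar that reaches the bottom of the axis extends to 0. Unc45b and Hspb3 lie near 0.01 to 0.02 in MB and above 4 in MT, while Hsp90aa1, Hspb1 and Cryab are the 3 highest in every library.

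Changes are given as the log2 of the (FPKM + 1) ratio, a scale on which genes with low values appear to change less. A gene was tested when its FPKM was at least 1 in at least 1 library of the pair and was called higher or lower at 0.58 or more in either direction. By this rule 6 of the 10 genes were higher in MT, against 15.4% of 11816 genes tested, and 2 were lower, against 28.6%. The median change was 1.13 for the 10 genes and -0.20 for all genes tested. Hspb3, Hspb7, Unc45b and Smyd1 passed the filter through MT alone and so had to differ, which makes these counts and the median of the 10 genes a description. Another count sets limits on both stages: of 12317 named entries below an FPKM of 0.25 in MB, 87 (0.706%) reached 4 in MT. Of these 87 entries 4 were among the 10 genes. Its limits were chosen after the values were seen and also select on MT, so it is a description as well. Because the median gene lay at -0.20, each change relative to that median is higher by 0.20. On this scale 21.8% of genes were higher in MT and 19.6% lower.

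**Figure D2:**
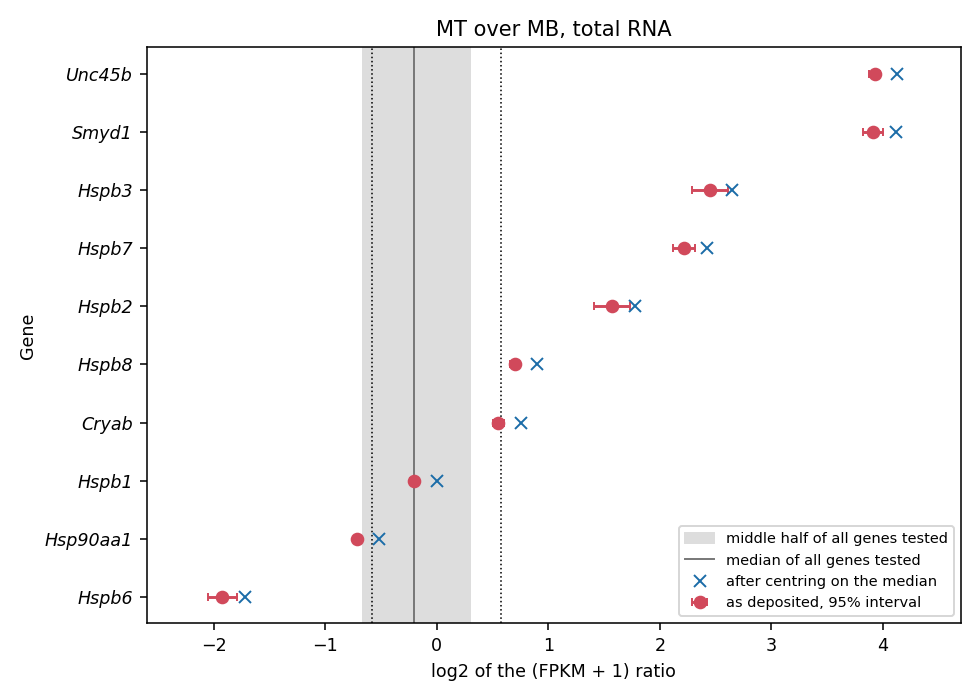
Change of each gene in MT over MB as the log2 of the (FPKM + 1) ratio, with 95% intervals (circles) and after centring on the median of all genes tested (crosses). The grey band is the interquartile range of all genes tested and the dotted lines are the limits for a call. Unc45b and Smyd1 lie at 3.93 and 3.91, and Hspb6 at -1.92.

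Among the myosin chaperones Unc45b and Smyd1 were switched on, and Hsp90aa1 was not. Unc45b (chr11:82724755-82756908, mm9, plus strand) was at 0.0142 (0 to 0.0301) in MB and 14.4 (14.0 to 14.9) in MT. Its interval in MB corresponds to 3.20 fragments, so the ratio of 1013 has an exact 95% interval from 370 to 5243. On the log2 scale the change was 3.93 (3.88 to 3.97). Unc45b was thus close to silent in MB, and its level in MT was above that of 58.7% of genes with an FPKM of at least 1.

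Smyd1 (chr6:71163934-71212275, minus strand) was at 0.230 (0.170 to 0.289) in MB and 17.5 (16.8 to 18.2) in MT, a 76.2-fold difference (58.6 to 99.0) and 3.91 on the log2 scale. An assembled unit of 262 bp without a symbol lies inside the Smyd1 gene and went the other way, from 3.85 (2.51 to 5.19) in MB to 0.977 (0.326 to 1.63) in MT. The intervals of both transcripts were apart between the stages. Of the SMYD family genes Smyd2, Smyd3, Smyd4 and Smyd5, 3 were lower in MT, with Smyd5 at -1.43 and Smyd4 at -1.16, and Smyd3 was not called at 0.17. Of all genes tested 28.6% were lower.

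Unc45a, the form of Unc45 that most tissues use, was at 10.3 (9.88 to 10.7) in MB and 5.90 (5.60 to 6.20) in MT, a log2 change of -0.71, while Unc45b rose. The 2 paralogs therefore changed place: Unc45a was the higher in MB and Unc45b in MT. The clients of these chaperones appeared in the same libraries. All 6 sarcomeric myosin heavy chain genes tested passed the filter through MT alone and so had to be higher there. They were led by embryonic Myh3 from 0.101 to 121 and Myh1 from 0.0834 to 38.9, with Myh8 at 0.00202 and 5.24 and Myh7 at 0.0256 and 4.77. These genes are alike in sequence, so the split of reads among them is uncertain.

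Hsp90aa1, which encodes the inducible cytosolic Hsp90, was the most abundant of the 10 genes in both stages and was lower in MT. It was at 315 (313 to 317) in MB and 191 (189 to 193) in MT, a log2 change of -0.72 (-0.73 to -0.70). Relative to the median gene it was -0.51, which is short of a call.

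The small heat-shock genes did not change alike. Hspb3 and Hspb7 were switched on. Hspb3 (chr13:114453104-114453884, minus strand), a gene of 1 exon whose product pairs with HSPB2 in muscle, was at 0.0194 (0 to 0.0583) in MB, which corresponds to 1 fragment, and at 4.56 (3.98 to 5.14) in MT. Its ratio of 235 has an exact interval from 41.8 to 9318, so the fold is known only within wide limits.

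Hspb7 (chr4:140976694-140981225, plus strand), the cardiovascular small heat-shock protein that binds filamin C, was at 0.184 (0.126 to 0.242) in MB and 4.50 (4.22 to 4.78) in MT, a 24.5-fold difference (17.7 to 33.8). Hspb2, the partner of HSPB3 and a binding protein of the myotonic dystrophy kinase, was at 9.60 (8.56 to 10.6) in MB and 30.5 (28.6 to 32.4) in MT, or 1.57 on the log2 scale (1.41 to 1.74). The HSPB2 and HSPB3 partners thus both had higher mRNA levels in MT, where Hspb2 was the more abundant.

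Hspb8, which acts with BAG3 to send damaged filamin to autophagy, was at 52.5 (51.2 to 53.7) in MB and 85.8 (84.2 to 87.3) in MT, a log2 change of 0.70 (0.66 to 0.74). Its partner gene Bag3 was at 15.2 in MB and 11.2 in MT (-0.42) and was not called. Of 8 tested genes of the BAG3 pathway 2 were higher in MT, Synpo2 at 1.62 and the client Flnc, filamin C, at 0.81, and 2 were lower, Stub1 at -0.62 and Hspa8 at -0.61. Neither of those 2 falls was called relative to the median gene, where 3 genes were higher and 0 lower.

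The abundant genes Hspb1 and Cryab changed less. Hspb1 (chr5:136363789-136365433, plus strand), a phosphorylated actin-binding chaperone of most cell types, was at 207 (204 to 211) in MB and 180 (177 to 184) in MT. Its log2 change of -0.20 (-0.24 to -0.16) was that of the median gene, so relative to the median it was 0.00051, on the other side of 0.

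Cryab, the alphaB-crystallin that binds desmin and titin, was at 115 (112 to 118) in MB and 169 (165 to 173) in MT. Its log2 change of 0.55 (0.50 to 0.60) fell just short of a call and was 0.75 relative to the median gene, past the limit. The rise is not seen in the fragments that the intervals imply, which were 6552 in MB and 7128 in MT. Scaled like the median gene these give a ratio of 1.04, against 1.47 by FPKM. For Smyd1 the same reckoning gives 39.9 in place of 76.2, and for Unc45b 1266 in place of 1013. For 6 of the 10 genes, Hspb2 being the other exception, both ratios were within 0.05 on the log2 scale, as for 75.2% of 10790 genes. Implied fragments also carry the uncertainty of assigning reads among isoforms, which was not tested.

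Hspb6, the small heat-shock protein HSP20 of smooth and striated muscle, was the only one of the 7 small heat-shock genes called lower in MT. It was at 19.2 (18.3 to 20.1) in MB and 4.32 (3.91 to 4.74) in MT, a ratio of 0.225 (0.203 to 0.2504) and a log2 change of -1.92. The change held relative to the median gene, at -1.72. Its neighbour Lin37, whose entry begins 2 bp from the end of Hspb6 and meets its annotated exons, was at 9.82 (9.07 to 10.6) and 9.58 (8.77 to 10.4), with overlapping intervals. Proser3, whose entry lies 1030 bp before that of Hspb6, also meets annotated exons of Hspb6. It was at 1.48 (1.30 to 1.66) in MB and 0.959 (0.820 to 1.10) in MT, with intervals apart.

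Hspb2 and Cryab are a gene pair. They lie head to head on chromosome 9, with annotated starts 403 bp apart, Hspb2 on the minus strand (chr9:50559177-50560459) and Cryab on the plus strand (chr9:50559430-50564740 in the table). The entries in the table overlap by 1030 bp on opposite strands, and the total RNA libraries were strand-specific. Whether strand was used to divide fragments between the pair is not known, so that division is uncertain. Cryab exceeded Hspb2 in FPKM 11.96-fold in MB and 5.53-fold in MT, and in the polyA libraries 4.60-fold in si-NC and 4.02-fold in si-hnRNPL. The less abundant gene of the pair had the larger fold in MT over MB.

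In sum the 7 small heat-shock genes came to 404 FPKM in MB and 478 in MT, and the make-up of this pool differed between the stages. These sums depend on the scaling of the libraries, where FPKM over all entries came to 650275 in MB and 337279 in MT. Hspb1 made up 51.4% of it in MB and 37.7% in MT, Cryab 28.4% and 35.2%, and Hspb8 12.99% and 17.9%. Hspb2 rose from 2.38% to 6.37% of the pool while Hspb6 went from 4.76% to 0.904%. Hspb3 and Hspb7, despite their large folds, made up 0.954% and 0.940% in MT. By implied fragments, which also weigh length, Hspb8 had the largest share in MT (36.4%, from 25.03% in MB), and Cryab went from 22.8% to 21.0%, against its direction in FPKM.

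**Figure D3:**
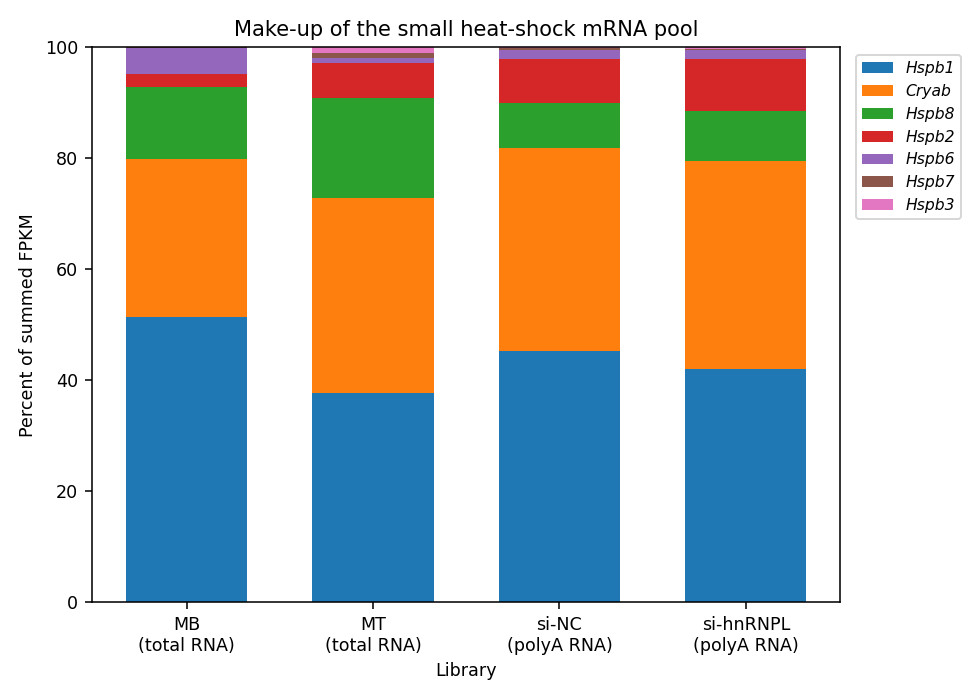
Share of each small heat-shock gene in the summed FPKM of the 7 genes, in percent, by library. Hspb1 and Cryab together make up 79.8% in MB, 72.9% in MT, 81.9% in si-NC and 79.5% in si-hnRNPL.

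The order of the levels was alike at its top. In MB and MT it ran Hsp90aa1, Hspb1, Cryab and Hspb8, with intervals apart between neighbours. In MB neighbours overlapped for Smyd1 and Hspb7 and for Hspb3 and Unc45b. In MT overlap was seen at the bottom, among Hspb3, Hspb7 and Hspb6, where Hspb6, ahead of Hspb2 in MB, came last.

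The general chaperones of the same cells are described by their counts. Of all genes tested 28.6% were lower in MT and 15.4% higher, and relative to the median gene 19.6% were lower and 21.8% higher. Of 22 tested genes of the Hsp90 family and its cochaperones, Hsp90aa1 not among them, 13 (59.1%) were lower in MT and 1 was higher, with a median of -0.61. Relative to the median gene 7 (31.8%) were lower and 2 higher. The gene called higher, Itgb1bp2, which passed the filter through MT alone, encodes melusin, a muscle protein with the CHORD domain of Hsp90 cochaperones, and went from 0.256 (0.151 to 0.360) in MB to 29.5 (28.4 to 30.6) in MT, a log2 change of 4.60. The lower ones were led by the immunophilins Fkbp5 at -1.57 and Fkbp4 at -1.31 and by Ptges3, the p23 cochaperone, at -1.09.

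Of 15 Hsp70 and Hsp110 genes 8 were lower, among them Hspa14 at -1.29, Hsph1 at -1.08 and Hspa1b at -0.81, which can share reads with its near-identical copy Hspa1a, and 1, Hspa2, was higher at 0.66. Relative to the median gene 3 of the 15 were lower, a share near that of all genes, and 1 was higher. The cytosolic chaperonin TRiC, which folds actin and tubulin, and prefoldin, which delivers them, were lower in 11 of 14 genes and higher in none, with a median of -0.86. The TRiC subunits Cct7, Cct6a and Cct3 were at -1.11, -1.04 and -1.03 and prefoldin Pfdn4 was at -0.90. Of the 14 genes 78.6% were thus lower as deposited and 64.3% (9 genes) relative to the median gene. After scaling both libraries to a common upper quartile 4 of the 14 were lower, against 16.2% of all genes tested. Both mitochondrial chaperonin genes were lower, Hspd1 at -1.62 and Hspe1 at -1.31.

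DnaJ genes of classes A and B, the cochaperones that start the Hsp70 cycle, were mixed, with 2 higher (Dnajb5 at 1.51 and Dnajb9 at 0.77) and 1 lower (Dnajb1 at -1.12) of 13, and 3 higher and 1 lower relative to the median gene. Of 11 chaperones of the endoplasmic reticulum 4 were lower, with Sdf2l1 at -0.99 and Pdia6 at -0.74, and 1 was higher, the same Dnajb9. Relative to the median gene 1 was lower.

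Targets of HSF1, the factor of the heat-shock response, were lower in 11 of 14 genes and higher in none, with a median of -0.80, and 8 of 14 (57.1%) were lower relative to the median gene. All 14 are also in the lists above. Genes of the heat-shock factors themselves were not called as deposited, although Hsf4 was called higher relative to the median gene and with pseudocounts of 0.1 and 0.01. Hsf1 was at 30.2 in MB and 23.1 in MT, Hsf2 at 13.2 and 13.8, and Hsf4 at 1.52 and 2.39. Hspb11, the other gene tested with a small heat-shock symbol, was at 19.7 in MB and 24.6 in MT and was not called.

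**Figure D4:**
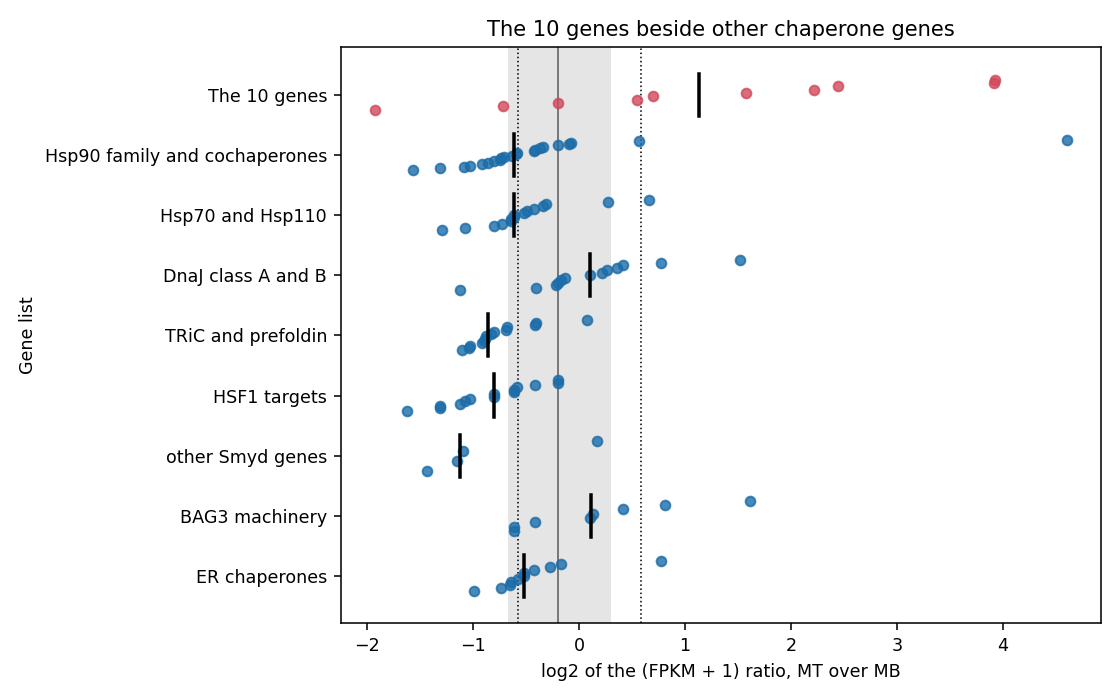
Change of single genes in MT over MB (log2 of the (FPKM + 1) ratio), for the 10 genes and 8 lists of other chaperone genes, with the median of each list as a black bar. The grey band is the interquartile range of all genes tested and the dotted lines are the limits for a call. The median of the 10 genes is 1.13, and those of the Hsp90, Hsp70, TRiC and HSF1 lists lie between -0.86 and -0.61. Unc45b, Smyd1, Hspb3 and Hspb7 passed the filter through MT alone and so had to be called higher. The median of the 10 genes is therefore a description and not a contrast with the lists.

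In the experiment on hnRNPL the target was looked at first. In si-NC Hnrnpl was at 95.1 (92.7 to 97.5) and in si-hnRNPL at 85.9 (83.1 to 88.7), so that 90.4% of its mRNA level remained in the library labelled si-hnRNPL. Between the stages it was at 111 in MB and 63.0 in MT, a wider gap than that left by the siRNA. The differences below are those between 1 library with this small reduction in Hnrnpl mRNA and its control. The study examined the knockdown of hnRNPL protein by Western blot, and these mRNA values do not measure the protein.

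None of the 10 genes was called higher in si-hnRNPL, against 1.44% of 11370 genes tested, and none lower, against 0.888%. The values were nonetheless above those of si-NC for 9 of the 10 genes, where 48.0% of genes tested were above 0, with a median of 0.29 for the 10 genes and -0.01 for all. For 7 genes the intervals of both libraries were apart.

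In si-NC Unc45b was at 7.26 (6.68 to 7.85) and in si-hnRNPL at 10.4 (9.58 to 11.3), a 1.44-fold difference (1.28 to 1.61) and a log2 change of 0.47 that was higher than that of 97.4% of genes tested. Hspb2 was at 46.2 (42.2 to 50.1) and 63.8 (58.2 to 69.4), a log2 change of 0.46. Hspb8 was at 47.2 (45.3 to 49.0) and 62.0 (59.4 to 64.6), or 0.39. In these genes the libraries differed by more than their counting error.

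Smyd1 was at 12.1 (11.3 to 12.8) and 15.1 (14.1 to 16.1), a log2 change of 0.30. Cryab was at 213 (204 to 221) and 257 (246 to 267), or 0.27, and Hspb1 at 264 (257 to 271) and 288 (279 to 297), or 0.13. Hsp90aa1 was the only one with a lower value, at 375 (371 to 379) and 350 (346 to 355), or -0.10.

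The intervals overlapped for the other genes. Hspb3 was at 0.821 (0.393 to 1.25) and 1.60 (0.865 to 2.34), from an implied 14.7 and 18.9 fragments, so its change of 0.51 (-0.02 to 1.04) is uncertain. Hspb7 was at 1.59 (1.32 to 1.85) and 2.00 (1.63 to 2.37), and Hspb6 at 9.62 (8.61 to 10.6) and 10.6 (9.28 to 11.9). For these genes a difference was not detectable at this depth.

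**Figure D5:**
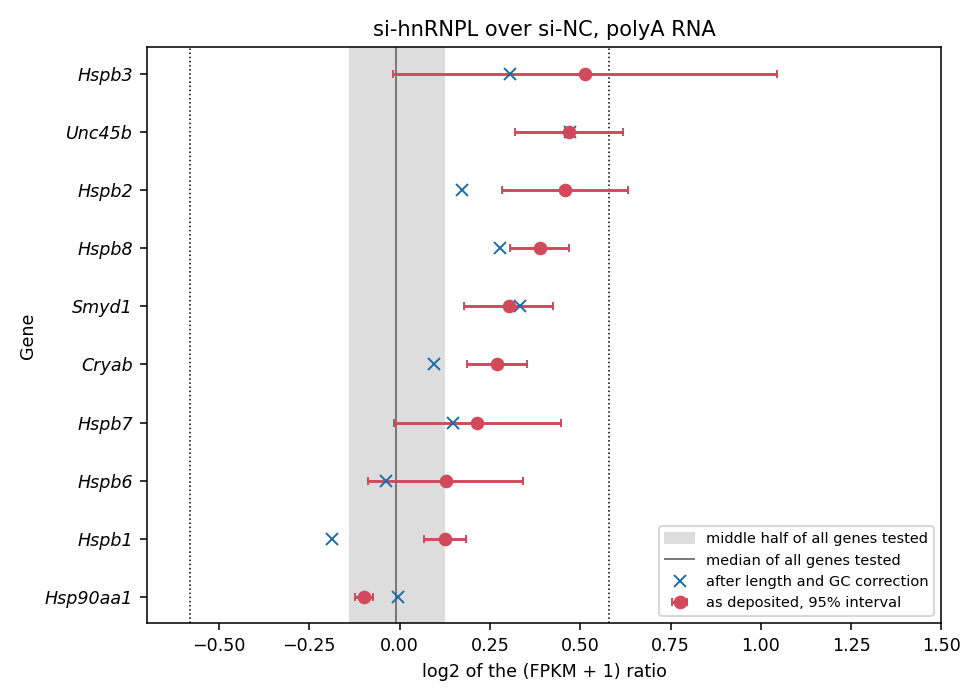
Change of each gene in si-hnRNPL over si-NC as the log2 of the (FPKM + 1) ratio, with 95% intervals (circles) and after subtracting the median change of genes of like transcript length and GC content (crosses). The grey band is the interquartile range of all genes tested and the dotted lines are the limits for a call. Before the correction 9 of 10 genes lie above 0, and after it 7 of 10.

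Transcript length moved with these changes. Across 10061 genes the change in si-hnRNPL over si-NC had a Spearman rho of 0.42 with GC content and of -0.45 with transcript length, as a description across genes, which are no replicates, and 4 of the 10 genes have transcripts of at most 1300 bases, a class with a median of 0.16 against -0.03 for longer ones. When the median change of genes of like length and GC content was subtracted, 7 of the 10 genes stayed above 0, against 45.9% of genes, with a median of 0.16. Unc45b stayed at 0.47, Smyd1 at 0.33 and Hspb8 at 0.28, whereas Hspb2 came to 0.17, Cryab to 0.10 and Hspb1 to -0.19.

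Most myotube markers also had higher values in si-hnRNPL. Of 6 such markers Acta1 (1009 in si-NC and 1537 in si-hnRNPL, a log2 change of 0.61) and Ckm (45.0 and 74.3, 0.71) were called higher, the median was 0.47, and Actn2 was at -0.13. Of 6 myoblast markers Mki67 (24.3 and 15.5, -0.62) and Top2a (64.3 and 42.2, -0.60) were called lower, with a median of -0.43 and Id1 at 0.25. Smooth muscle markers, of which none was called, also had higher values in all 4 genes tested, with a median of 0.29, Tagln at 104 and 152 (0.55) and Acta2 at 549 and 753 (0.46). The part of these markers in the values of the 10 genes was not tested. Among the other chaperone lists no gene was called, and the medians of the Hsp90, Hsp70 and TRiC lists were -0.05, -0.06 and -0.03.

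The protocols, depths and times of the experiments differed, so levels in the polyA libraries are set beside those of MT only as values. Hspb3 was at 0.821 in si-NC and 4.56 in MT, Hspb7 at 1.59 and 4.50, Unc45b at 7.26 and 14.4, and Smyd1 at 12.1 and 17.5. The 4 genes switched on in MT were all lower in the library of DM 48 hours than in that of DM 72 hours. Hspb8 was also lower in si-NC than in MT, whereas Hspb1, Hspb2, Hspb6, Cryab and Hsp90aa1 were higher. Time, RNA selection and siRNA transfection cannot be told apart.

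Genes with the most similar levels were found by the distance of log2(FPKM + 1) over the 4 libraries, among 11619 named genes. Unc45b was nearest to Trim63 (0.336) and Myom1 (0.355), Smyd1 to Lmod2 (0.359) and Pygm (0.367), and Hspb7 to Abra (0.144) and Olfml2a (0.234). Abra was at 0.211, 4.63, 1.79 and 2.18 in MB, MT, si-NC and si-hnRNPL, close to Hspb7 in each. Hspb3 was nearest to Dpep1 (0.347) and Tas1r1 (0.397), Hspb2 to Fam20a (0.186) and Mrc2 (0.336), and Hspb8 to Scx (0.261) and Herpud1 (0.419). The falling Hspb6 was nearest to Vps37b (0.233) and Twist2 (0.302). Hspb1 was nearest to Ddb1 (0.0953) and Oaz1 (0.101), Cryab to Maged1 (0.279) and Gabarap (0.314), and Hsp90aa1 to Slc25a4 (0.165) and Hint1 (0.210). With 4 libraries this distance describes levels only.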

How the data were processed

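MB and MT were measured by total RNA-seq and si-NC and si-hnRNPL by polyA RNA-seq, with 1 library each. The authors trimmed the reads, discarded those under 36 bp, used TopHat to align the others to mm9, and deposited FPKM values with 95% intervals from Cufflinks. The total RNA libraries were strand-specific. The intervals imply 59960176 fragments in MB, 54442423 in MT, 21341051 in si-NC and 14592480 in si-hnRNPL, by (2 x FPKM / (upper bound - FPKM)) squared, and cover counting and assignment error only. Changes are log2((FPKM + 1) ratio), with intervals from both half-widths in quadrature. Ratios with few fragments in MB have exact binomial 95% intervals. Coordinates are 1-based mm9 unless given as GRCm38.p6. Transcript lengths and GC content are of the longest coding transcript in GENCODE vM1, in 20 bins each. The calculations were made with Python 3.11.15 and pandas 2.3.3 and tested on simulated data. The 10 genes and the 18 lists of other genes were chosen with earlier results of these data known. The text names the 10 genes, Hnrnpl, up to 4 genes with the largest change in MT over MB in each list, any list gene called in si-hnRNPL over si-NC, and the 2 nearest genes of each member. Unc45a, Bag3, Hspa1a, Hspa2, Pfdn4, Lin37, Proser3, Actn2, Id1, Myh11 and the markers at 0 were named after their values were seen.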

Additional observations from a re-analysis of the deposited data

How the results depend on the processing

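No paired analysis was possible because each condition was 1 library and the labels give no replicate numbers, and no library could be left out. The count of 6 genes higher in MT fell to 2, against 12% of genes tested, when an FPKM of at least 1 was required in both libraries. That filter removes the 4 genes that were off in MB. The count was 5 to 7 under the other alternatives, while the share of all genes tested ranged from 7.81% to 25.1%. The count of 2 lower genes was 1 with a log2 limit of 1, 1 after centring on the median and 1 after upper-quartile scaling, where Hsp90aa1 was no longer called. The shares of all genes tested called lower in these settings were 13.3%, 19.6% and 16.2%. The counts of other chaperones lower in MT also depended on the scaling. After upper-quartile scaling 16.2% of all genes tested were lower and 25.1% higher. In this setting 5 of 22 genes of the Hsp90 list were lower and 2 higher. Of 15 Hsp70 and Hsp110 genes 2 were lower and 1 higher, and of 14 HSF1 targets 6 were lower and 0 higher. In si-hnRNPL over si-NC the count of 0 higher genes became 1 (Hspb3) with a pseudocount of 0.1 and 1 with a pseudocount of 0.01. Under the alternatives that alter the value of a change, and not only the rule for a call, 58 of 100 changes of single genes stayed within their interval, 42 moved and none that was called turned its direction. The correction for length and GC content and the change of implied fragments were chosen after seeing the data, and in the latter 16 of 20 values stayed within their interval. Counting error limits Hspb3 and Unc45b in MB most.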
